A study of Drosophila melanogaster with 2 samples.

Results

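The genes described here are the translation initiation and elongation factor genes of Drosophila melanogaster, taken as every annotated protein-coding gene whose symbol starts with eIF or eEF. The annotation held 52 such genes among 13968 protein-coding genes. Binding of Jing, a zinc finger protein, was mapped by chromatin immunoprecipitation followed by sequencing (ChIP-seq) in whole embryos of both sexes aged 0 to 16 h, which mix all embryonic cell types. The embryos came from 1 transgenic line that stably expressed Jing with green fluorescent protein (GFP) at its C terminus, and an antibody against GFP was used; what drove the tagged gene was not stated in the labels. Both samples, biological replicates 2 and 3 of 1 group, carried the tag, so no comparison between conditions was possible and the control alignment was not analysed here. All coordinates are in dm6, counted from 1.

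Initiation factors bring the small ribosomal subunit, the initiator tRNA and the capped messenger RNA together, select the start codon and allow the large subunit to join. Elongation factors then deliver aminoacyl-tRNAs to the ribosome and move it along the messenger. Most of these genes are housekeeping genes that nearly every dividing or growing cell transcribes, and several have paralogues with expression restricted to the germ line, as is known for some eIF4E forms in the fly testis.

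For each gene, the summits of the deposited peaks were counted in the gene span extended by 1 kb on both sides. A summit is the base of highest enrichment in a peak. Each replicate and the pooled reads had a relaxed list of 30000 peaks, which holds background as well as enriched places. The thresholded list held the 2593 peaks kept by the authors' reproducibility step, which were also the strongest of the pooled list. A peak in it need not have a summit in both replicates, as the mTor peak described below shows. Ranks run from 1, the strongest peak of a list. The scale of the signal values is not given and the read depth is unknown, so ranks, not signals, are compared between lists, and Wilson 95% intervals cover counting error only.

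Most translation factor genes had no thresholded Jing-GFP peak, as was also true of protein-coding genes as a whole. A thresholded summit lay in or within 1 kb of 6 of the 52 genes (11.5%, interval 5.40 to 23.0%), beside 15% of all protein-coding genes. These were eIF2Bbeta, eIF4EHP, eIF2beta, eEF1gamma, eIF3h and eIF5B. Because long genes collect more summits, the count was also set against genes of like length. The share of other protein-coding genes in the same decile of span length, summed over the 52 genes, came to 7.40 genes, a ratio of 0.811 with a counting interval of 0.379 to 1.61. That interval holds 1, so neither a shortage nor an excess of thresholded peaks was detectable with 52 genes. Within 500 bp of a start site of the gene itself there were 4 genes (7.69%), beside 8.59% of all protein-coding genes and 4.53 genes of like length.

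In the relaxed lists, in which a peak is weaker evidence, smaller shares of these genes had a summit than of protein-coding genes as a whole. In the pooled list 15 genes had a summit (28.8%, interval 18.3 to 42.3%), beside 50.7% of all protein-coding genes and 25.4 genes of like length. In replicate 2 there were 22 genes (42.3%, interval 29.9 to 55.8%, beside 54.8%) and in replicate 3 there were 17 (32.7%, interval 21.5 to 46.2%, beside 54%), against 27.9 and 27.1 genes of like length. At promoters, taken as the 500 bp on each side of a start site, the pooled list had 7 genes (13.5%, beside 29.3%) and replicate 3 had 8 (15.4%, beside 29.2%), while replicate 2 had 17 (32.7%, beside 34.4%). No summit of any list was found at 24 genes (46.2%), beside 31.2% of all protein-coding genes and 16.7 genes of like length. Among them were eIF1 and eIF1A, which act in scanning for the start codon, and eIF2alpha and eIF2gamma, the subunits that partner eIF2beta. Also without a summit were eIF5, eIF2D, eIF4G1, the scaffold of the cap-binding complex, eIF4H1, eIF4E5, eIF4E7, eEF1delta, eEFSec, eIF2Balpha, eIF2Bgamma, eIF2Bepsilon, eIF3a, eIF3b, eIF3f1, eIF3f2, eIF3g1, eIF3g2, eIF3i, eIF3k and eIF3l.

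**Figure D1:**
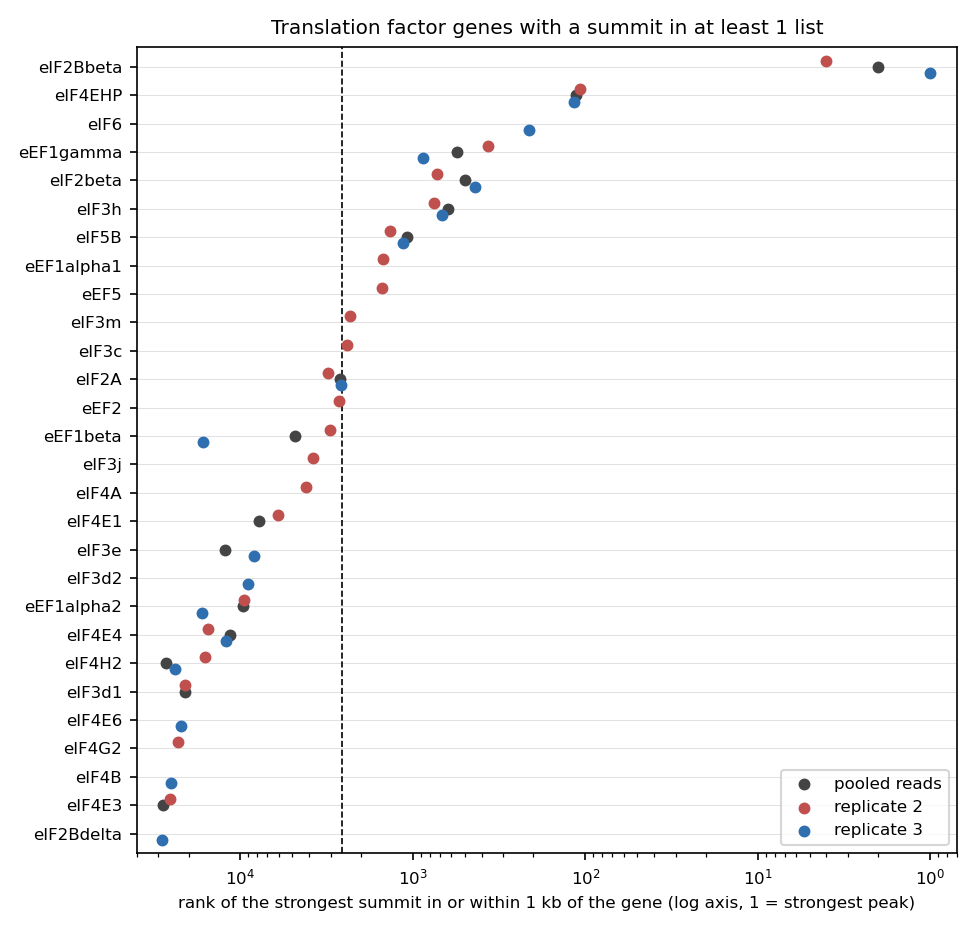
Rank of the strongest summit in or within 1 kb of each translation factor gene that had one in at least 1 relaxed list, on a log axis with the strongest peaks on the right. Black points are the pooled reads, red replicate 2 and blue replicate 3, and the dashed line marks rank 2593, the length of the thresholded list. For eIF2Bbeta and eIF4EHP all 3 points lie together far to the right, whereas eIF6 has a blue point alone and eEF1alpha1 and eEF5 a red point alone.

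Of the peaks at translation factor genes, the strongest stood near eIF2Bbeta, which encodes a subunit of the exchange factor that reloads eIF2 with GTP (gene at chrX:2704571-2706217, forward strand). Its summit had rank 2 among the thresholded peaks with a pooled signal of 2151. The same summit had rank 4 in replicate 2 (signal 778) and rank 1 in replicate 3 (signal 1379), 8 bp away. It lay 683 bp before the start of eIF2Bbeta and 36 bp before that of Ugalt, a UDP-galactose transporter gene on the other strand, so the nearer promoter belongs to Ugalt. The bases around it, in the direction of eIF2Bbeta, are shown because no other peak near a translation factor gene was as strong, and the summit is base 66 of the run at chrX:2703823-2703963.
eIF2Bbeta: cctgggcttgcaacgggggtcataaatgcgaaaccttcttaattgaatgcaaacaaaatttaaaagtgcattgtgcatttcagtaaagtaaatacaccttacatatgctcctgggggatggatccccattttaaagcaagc

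The peak at eIF4EHP was next in strength. This gene, on the reverse strand at chr3R:24063077-24108960, encodes a cap-binding protein that represses the translation of chosen messages, among them caudal in the early fly embryo. Its promoter summit had rank 113 (signal 601), with rank 107 in replicate 2 (signal 258) and rank 117 in replicate 3 (signal 345). It lay 199 bp before the start of eIF4EHP and 177 bp before that of CG18428, within the 376 bp that separate these divergent starts. A second thresholded summit stood 9753 bp into the gene, in an intron, with rank 714 (signal 244), rank 810 in replicate 2 (signal 103) and rank 728 in replicate 3 (signal 138). At both places the replicates differed little in rank. The promoter window is shown in the direction of eIF4EHP at chr3R:24109084-24109234, with the summit at base 76 and the letters TATAAA, or the same on the other strand, in capitals. It is rich in A and T, with 20.5% G and C.
eIF4EHP: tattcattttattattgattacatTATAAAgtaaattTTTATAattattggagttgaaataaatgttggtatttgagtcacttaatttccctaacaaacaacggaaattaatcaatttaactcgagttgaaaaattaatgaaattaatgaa

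Among the elongation factor genes only eEF1gamma had a thresholded summit. It encodes a subunit of the complex that reloads the tRNA carrier eEF1A with GTP, and lies on the forward strand at chr3R:29220172-29222109. The summit had rank 555 (signal 285), rank 369 in replicate 2 (signal 154) and rank 869 in replicate 3 (signal 123). It stood 40 bp before the start of the gene, which was the nearest start, and both replicate summits were 2 bp from it. The window at chr3R:29220057-29220201 is shown because it holds the DNA replication-related element (DRE), TATCGATA, in capitals. The DRE starts 41 bp before the gene, and the summit, at base 76, falls within it.
eEF1gamma: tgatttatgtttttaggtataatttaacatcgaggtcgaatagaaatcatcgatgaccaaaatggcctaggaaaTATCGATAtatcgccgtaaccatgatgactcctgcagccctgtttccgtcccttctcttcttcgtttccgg

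The peaks of the initiation factors eIF3h, eIF5B and eIF2beta sat in different places relative to their genes. For eIF3h, a subunit of the large scaffold eIF3 (reverse strand, chr2L:5051193-5053094), the summit lay in an intron of the gene 327 bp after its nearest own start. It had rank 625 (signal 267), rank 751 in replicate 2 (signal 108) and rank 674 in replicate 3 (signal 146). eIF5B, the GTPase that joins the large subunit to the small one, spans chr3L:3428658-3460977 on the reverse strand. It had thresholded summits at its promoter and in an intron. The one at the promoter stood 126 bp before an inner start, in an untranslated or non-coding exon of a longer form. It had rank 1270 (signal 172), rank 1734 in replicate 2 (signal 65.2) and rank 1135 in replicate 3 (signal 106). The other lay 27732 bp downstream in an intron, with rank 1084 (signal 189), rank 1352 in replicate 2 (signal 77.0) and rank 1197 in replicate 3 (signal 103). Each of these summits ranked higher in replicate 3 than in replicate 2. The eIF3h window at chr2L:5052378-5052528 is shown in the direction of the gene, as an example of a summit inside a short gene; base 76 is the summit, and none of the motifs searched for on both strands (DRE, motif 1, E-box, GAGA and TATA) was in it.
eIF3h: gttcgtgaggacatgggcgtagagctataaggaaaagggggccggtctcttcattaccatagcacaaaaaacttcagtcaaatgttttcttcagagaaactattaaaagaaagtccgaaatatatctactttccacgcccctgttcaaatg

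The eIF2beta gene, for the eIF2 subunit that binds eIF5 and eIF2B in yeast (reverse strand, chr3L:12525093-12526731), had its thresholded summit beyond its 3′ end. The summit was 2493 bp from the start of eIF2beta but 189 bp before that of ver, a telomere protection gene that overlaps the eIF2beta end. The replicate 2 summit of this peak was nearest to another start, that of the histone acetyltransferase gene Gcn5, 206 bp away, so the peak lay by the divergent starts of ver and Gcn5. It had rank 497 (signal 301), rank 721 in replicate 2 (signal 109.6) and rank 437 in replicate 3 (signal 188). The promoter of eIF2beta had a separate summit in replicate 2 alone, 321 bp before the start, with rank 2208 and signal 56.2. Of the 8 thresholded summits at the 6 genes, 6 (75%, interval 40.9 to 92.9%) lay within 500 bp of some annotated start, beside 1059 of all 2593 thresholded summits (40.8%). These shares are not like for like. The 8 could only lie in or within 1 kb of a gene, which favours places near starts, whereas the 2593 include summits far from genes. A start of the translation factor gene itself was within 500 bp of 4 of the 8 summits and was the nearest start for 3, those of eEF1gamma, eIF3h and the eIF5B promoter.

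**Figure D2:**
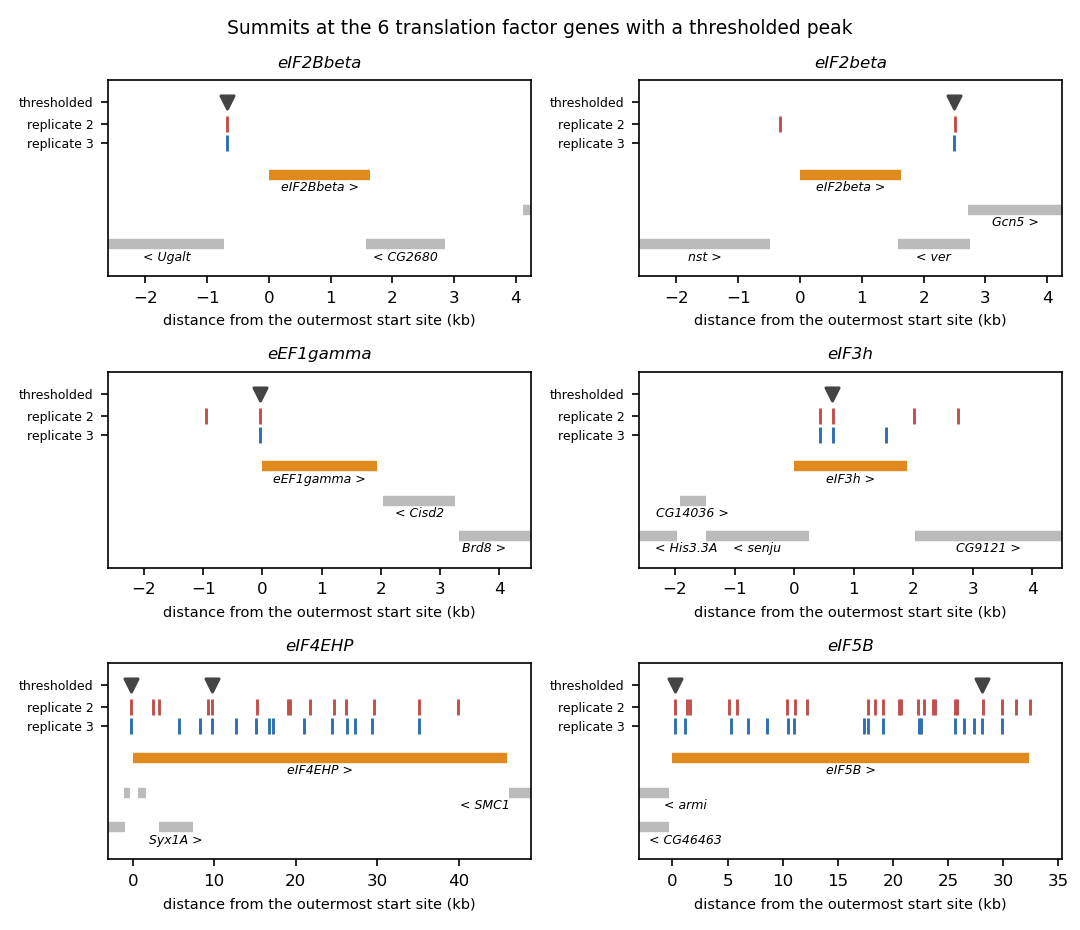
Positions of summits at the 6 translation factor genes with a thresholded peak, as distance in kb from the outermost start, with each gene drawn in its own direction. Triangles are thresholded summits, red and blue ticks relaxed summits of replicates 2 and 3 within 1 kb of the gene, the orange bar is the gene itself, and grey bars are protein-coding neighbours, the shortest of them without a name. At eIF2Bbeta and eIF2beta the triangle stands near the starts of neighbours, at 683 bp before and 2493 bp after the start of the gene, whereas at eEF1gamma it stands over the start itself.

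Below the threshold, 9 further genes had a summit in the pooled list. The strongest was at eIF2A, described in mammals as an alternative carrier of initiator tRNA. It had rank 2649 with a signal of 104 and a −log10 q of 1.97, just under the lowest value in the thresholded list, 2.01. Its ranks were 3100 in replicate 2 (signal 45.1) and 2611 in replicate 3 (signal 59.1). That summit stood 3366 bp from the eIF2A start and 136 bp before the start of the neighbour CG32448. The next was at eEF1beta, another subunit of the eEF1A exchange complex, with rank 4802 (signal 69.1), rank 3040 in replicate 2 (signal 45.7) and rank 19855 in replicate 3 (signal 23.7). It stood 23 bp before the start of the neighbour CG6426. The remaining genes had pooled ranks of 7764 for eIF4E1, the main cap-binding protein, 9705 for eEF1alpha2, 11519 for eIF4E4, 12256 for eIF3e, 20892 for eIF3d1, 27099 for eIF4H2 and 28155 for eIF4E3. Of these, the eIF4E1 summit was nearest to the start of the neighbour CG4080, 578 bp away. The eIF3d1 summit was nearest to that of CG16710, 117 bp away. The others were nearest to a start of the named gene. Most pooled summits, thresholded ones included, lay at the longest genes, eIF4EHP and eIF5B. Of the 56 pooled summits at translation factor genes, 36 were in or near these genes. They span 45884 bp and 32320 bp, where the median of the 52 genes was 1955 bp. The next longest genes, eIF4B (15603 bp), eIF4G1 (15419 bp) and eIF4G2 (10953 bp), had no pooled summit.

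The replicates did not list the same promoters. To compare them at equal length, the 2593 strongest peaks of each replicate were used. In replicate 2 these gave a summit at 10 of the 52 genes (19.2%, beside 15.4% of all protein-coding genes) and in replicate 3 at 7 (13.5%, beside 15.4%). At promoters they gave 9 genes in replicate 2 (17.3%, interval 9.38 to 29.7%, beside 9.39%) and 5 in replicate 3 (9.62%, interval 4.18 to 20.6%, beside 8.88%), against 4.91 and 4.68 genes of like length. Both replicates had the promoters of the same 4 genes, replicate 2 alone had 5 and replicate 3 alone had 1. Replicate 2 alone thus had 9.62% of these promoters, beside 2.66% of all protein-coding promoters, and replicate 3 alone 1.92% beside 2.15%. The intervals of the 2 replicates overlap, but both replicates score the same 52 genes, so this overlap does not test their difference. With 1 group, no test between samples exists.

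The 5 promoters of replicate 2 alone belonged to eEF1alpha1, eEF5, eIF2beta, eIF3m and eIF3c. eEF1alpha1 encodes the main carrier of aminoacyl-tRNA, and its summit had rank 1496 (signal 71.9) at 23 bp before a start. eEF5, the fly name of the hypusine-bearing factor eIF5A that relieves stalled ribosomes, had rank 1517 (signal 71.2) at 19 bp before its start. The eIF3 subunit genes eIF3m and eIF3c had rank 2323 (signal 54.3) at 108 bp and rank 2408 (signal 53.3) at 86 bp before their starts. In replicate 3 and in the pooled list, none of these 5 promoters had a summit, whereas 264 of the 371 protein-coding promoters that were strong in replicate 2 alone did have one in the pooled list. Over the whole relaxed lists, replicate 2 alone had a promoter summit at 12 of the 52 genes (23.1%, beside 14.1% of all protein-coding genes) and replicate 3 alone at 3 (5.77%, beside 8.88%). The 7 further promoters of replicate 2 alone included eEF2, the translocase, 1 bp after its start (rank 2674, signal 49.9), and eIF4A, the helicase that unwinds the leader of the messenger, 82 bp before its start (rank 4170, signal 37.5). The other 5 were weak, with rank 16571 at eIF4E1, 106 bp after its start, rank 23052 at eEF1alpha2, 175 bp before, rank 25634 at eIF4E3, 400 bp after, rank 26496 at eIF3d1, 233 bp before, and rank 27799 at eIF4G2, 56 bp after.

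The only gene with a strong peak in replicate 3 alone was eIF6, whose product keeps the large ribosomal subunit from joining the small one too early. The summit, 100 bp before the eIF6 start at chr2R:23850401, had rank 211, a signal of 269 and a −log10 q of 3.47 in replicate 3. Neither replicate 2 nor the pooled list had a summit within 1 kb of the gene. Of the 300 strongest peaks of replicate 3, this was the only 1 with no summit within 500 bp in either replicate 2 or the pooled list, and replicate 2 had 2 such peaks among its 300 strongest. An antisense RNA gene, asRNA:CR45928, starts 29 bp from eIF6 on the other strand, and the summit lay inside it and in an intron of ytr. The other genes with summits in replicate 3 alone among all 3 relaxed lists were weak there, with ranks of 9083 for eIF3d2, 22178 for eIF4E6, 25182 for eIF4B and 28638 for eIF2Bdelta. In replicate 2 alone, eIF3j had rank 3805 at 2156 bp from its start, 77 bp after that of CG12134, and eIF4G2 had rank 23027.

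The same counts in the ribosomal protein genes are given side by side, and no test between gene sets was run. Of the 92 cytosolic ribosomal protein genes, 27 (29.3%) had a thresholded promoter summit, beside 8.59% of all protein-coding genes and 4.83 genes of like length. The strongest peaks gave 42 (45.7%, beside 9.39%) in replicate 2 and 17 (18.5%, beside 8.88%) in replicate 3. The counts for genes of like length were 5.29 and 5.20. Replicate 2 alone had 25 of the 92 promoters (27.2%, beside 2.66% of all protein-coding promoters), and 15 of the 25 had a pooled promoter summit. Of the 73 mitochondrial ribosomal protein genes, 9 (12.3%) had a thresholded promoter summit, beside the same 8.59% and 2.97 genes of like length. The strongest peaks gave 7 (9.59%) in replicate 2 and 9 (12.3%) in replicate 3, against 3.41 and 3.08 genes of like length. Replicate 2 thus had more of these promoters than replicate 3 in the cytosolic ribosomal protein and translation factor genes, and fewer in the mitochondrial set. The median distance from a gene to its nearest thresholded summit was 18.6 kb for the translation factor genes, 8.85 kb for cytosolic and 11.4 kb for mitochondrial ribosomal protein genes, and 17.2 kb for all protein-coding genes. The farthest translation factor gene, eIF4B, lay 3134152 bp from one.

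**Figure D3:**
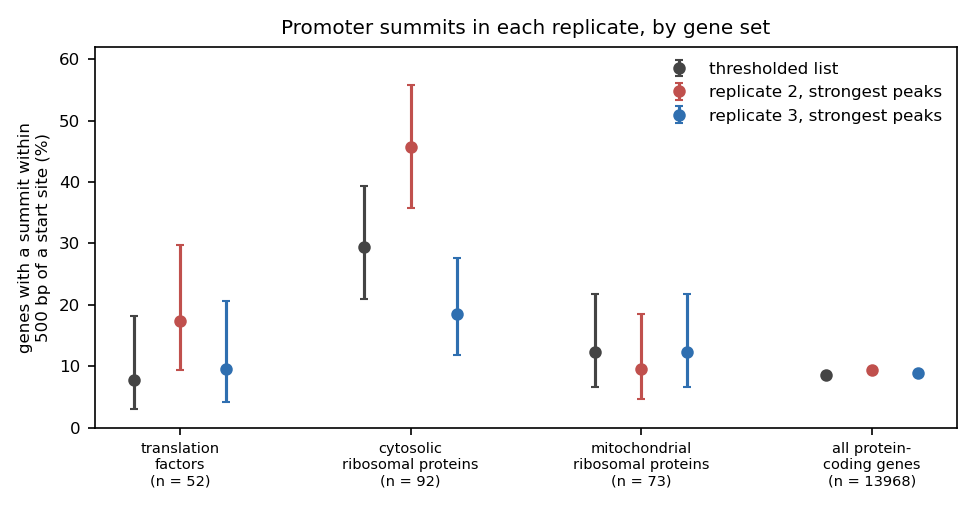
Share of genes with a summit within 500 bp of a start site, in percent, for the translation factor genes, 2 ribosomal protein sets and all protein-coding genes. Points are the thresholded list (black) and the 2593 strongest peaks of replicate 2 (red) and replicate 3 (blue), and bars are Wilson 95% intervals, which cover counting error only. For the translation factor genes the points are 7.69%, 17.3% and 9.62%. Their intervals overlap, but the lists score the same genes, so this does not test a difference. The red point of the cytosolic ribosomal protein genes, at 45.7%, stands above their blue one at 18.5%.

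By role, thresholded summits were spread thinly. They were found at 1 of 8 elongation factor genes, 2 of 9 genes of the eIF1, eIF2 and eIF5 group, 1 of 5 eIF2B genes, 1 of 16 eIF3 genes, 1 of 13 eIF4 genes and not at eIF6, beside 15% of all protein-coding genes. Groups this small would hold 0 to a few such genes at that share, so no difference between roles can be read from them. In the relaxed list of replicate 2, 6 of the 8 elongation factor genes had a summit (beside 54.8% of all protein-coding genes). All 6 had one at a promoter (beside 34.4%). Those promoter summits were weak at eEF1alpha2 (rank 23052 of 30000) and at eEF1beta (rank 26235, nearest to the start of Psi). In replicate 3 the numbers of elongation factor genes were 3 with a summit (beside 54%) and 2 with one at a promoter (beside 29.2%). For the 16 eIF3 genes they were 5 and 4 in replicate 2 and 3 and 1 in replicate 3, beside the same shares. Among the 7 eIF4E-type genes, eIF4EHP alone had a thresholded summit, while eIF4E5 and eIF4E7 had none in any list.

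For motifs, the promoter of a gene was taken as the 250 bases before to 50 after its outermost annotated start. These bases, from the Release 6 genome of RefSeq, were searched on both strands for fixed letters. The DRE, TATCGATA, is bound in flies by DREF, a factor of growth and housekeeping genes. It was in 14 of the 52 promoters (26.9%), beside 9.36% of all protein-coding promoters and 30.4% of those of cytosolic ribosomal protein genes. The motif 1 core GGTCACACT was in 3 (5.77%, beside 6.04%), CAGCTG in 4 (7.69%, beside 17.6%), GAGAG in 8 (15.4%, beside 29.7%) and TATAAA in 23 (44.2%, beside 45.8%). On the sense strand within 5 bases of the start, TCAGT was in 1 (1.92%, beside 10.1%). CTTTC or CTTTT, the initiator type of ribosomal protein genes, was in 3 (5.77%, beside 3.47%), those of eIF3f1, eIF3i and eIF4A. By the same search, this initiator was in 33.7% of cytosolic ribosomal protein promoters. A thresholded summit within 500 bp of any start was at 1 of the 14 genes with the DRE (7.14%) and 3 of the 38 without the DRE (7.89%). Over all protein-coding genes the shares were 9.03% with the DRE and 8.55% without. Such a summit can lie outside the bases searched. Examples with the DRE in capitals are shown because, in contrast to eEF1gamma, none of these 5 genes had a thresholded summit within 1 kb, and each is read in the direction of its gene.
eEF1delta (chr2L:10232468-10232495): atggcgtagaTATCGATAtacctgcatt
eIF2alpha (chrX:16446989-16447016): cgcaattaaaTATCGATAacaccactgt
eIF3a (chr3R:4433916-4433943): cggcctgaacTATCGATAacgcagccag
eIF3f1 (chr3R:4714173-4714200): ccacccgcacTATCGATAggcccttttc
eIF4A (chr2L:5981702-5981729): gcgatcgatcTATCGATAgtcgctaatg

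Their DREs start 29 bp before the gene for eEF1delta, 13 bp for eIF2alpha, 38 bp for eIF3a, 8 bp for eIF3f1 and 52 bp for eIF4A. The nearest thresholded summits to these elements were 31460, 42771, 44405, 25883 and 7298 bp away in that order. Of these genes, eIF4A did have a replicate 2 summit, of rank 4170, at 82 bp before its start. Close spacing of genes bears on how summits are assigned, and 26 of the 52 genes (50%) had another gene starting on the opposite strand within 1 kb upstream, beside 38.2% of all protein-coding genes.

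Other genes of the pathway were taken from a list of regulators, partners and other translation factors, of which 34 of 35 names were found in the annotation. Thresholded summits were at 4 of 14 partners of initiation, 1 of 6 genes of nutrient signalling, 0 of 7 genes of termination and recycling and 0 of 7 mitochondrial factors. That made 5 of 34 (14.7%), beside 15% of all protein-coding genes and 18.1% expected for genes of like length, since these genes were longer (median span 5653 bp). For the termination and mitochondrial genes the pooled list gave 2 and 1. The strongest was at Lk6, the kinase that phosphorylates eIF4E in flies, at chr3R:11761045. It had rank 9 (signal 1496), rank 8 in replicate 2 and rank 10 in replicate 3. It stood inside the gene span, 966 bp before the nearest Lk6 start, an inner one. The gene larp, for an RNA-binding protein that associates with poly(A)-binding protein, had rank 45 (signal 849), rank 42 in replicate 2 and rank 49 in replicate 3. This summit also lay inside the gene span, 330 bp before an inner start. The summit at cup, which encodes an eIF4E-binding repressor of the germ line, had rank 1279 (signal 171) and was nearer to the start of CG34310. The summit at mTor, for the nutrient-sensing kinase, had rank 1589 (signal 151) and rank 968 in replicate 3 with none in replicate 2, and was nearer to Vha68-1. Paip2, for an inhibitor of poly(A)-binding protein, had rank 2580 (signal 107), with ranks of 2831 in replicate 2 and 2689 in replicate 3, near the end of the thresholded list.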

How the data were processed

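Per the file headers in the deposited readme texts, the authors called peaks on dm6 against a control alignment, once per replicate and once on pooled reads, and derived the thresholded list by an irreproducible discovery rate step. Names of the aligner and peak caller were not given in the sources used here. Each deposited peak has a signal value of unstated scale and the −log10 of a q-value; the authors' lists hold no counts, so depth is unknown. The labels give sonication to 200 to 800 bp and separate biosamples for the replicates, from 1 fly line.

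From these, summits (peak start plus offset) were assigned to Ensembl 115 gene spans extended by 1 kb, with transposable elements left out (18277 genes). Expected counts summed, over the 52 genes, the share of other protein-coding genes of the same span decile with a summit. Sequences came from the Release 6 genome. Steps were tested on simulated data. The tools were Python 3.11.15 with matplotlib 3.10.9, scipy 1.17.1, pandas 2.3.3 and numpy 2.4.6. Every gene with a thresholded summit and up to 8 of the next strongest in the pooled list were to be described in full; genes with summits in 1 replicate alone and eIF4E3 were named after their values were seen. The genes and lists were chosen with earlier results of these data known. Alternatives were a shorter list, each replicate alone, merged summits, other spans, nearest starts and other length classes.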

Additional observations from a re-analysis of the deposited data

How the results depend on the processing

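The count of 6 genes with a thresholded summit rose to 8 with a 2 kb extension, which added eEF1alpha1 and eIF3d1, and fell to 3 with no extension of the span. It was also 3 when each summit was given only to the gene with the nearest start. With the strongest peaks of 1 replicate in place of the thresholded list, it was 7 for replicate 3 and 10 for replicate 2. In the other 4 alternatives it was 4 to 6. The ratio to genes of like span length ran from 0.481 to 1.30 over 12 alternatives, within the counting interval of the main value; it passed 1 for the upper part of the thresholded list, down to its median signal (1.29), and for replicate 2 alone (1.30). The share of summits near a start ran from 50 to 84.6% over 6 alternatives. No paired analysis was possible because there is 1 group. Depth, which is unknown, limits what a missing summit says: it shows only that no peak was listed there. A summit between divergent starts cannot be assigned to 1 of the genes. With 2 replicates, a promoter peak seen in 1 of them has no further check.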
